A study of Mus musculus with 8 samples.

Results

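Chromatin of mouse tailbuds was examined at 8 genes that build the kidney: Osr1, Pax2, Lhx1, Eya1, Wt1, Six2, Gdnf and Ret. One genomic window was set around each gene in the mm9 build, and every counted region that overlapped a window was taken, whatever its values. The 8 windows span 1.69 Mb and hold 19 of the 26620 counted regions, and 8 of 8 libraries have a count in each. Accessibility was measured by ATAC-seq with a home-made Tn5 transposase, an enzyme that cuts open DNA and tags it with adapters. Sd/Sd embryos, homozygous for Danforth's short tail, were set against WT/WT embryos, with 4 libraries each, all of tailbuds at embryonic day 9.5 on the outbred CD-1 background. Danforth's short tail is a spontaneous mutation known to shorten the tail and vertebral column and to leave kidneys small or missing. The tailbud was cut at the last somite, so that a library mixes all cells of the caudal tip, and tailbuds of more than 1 embryo were pooled where material was short. The labels do not say which libraries were pooled, and the p-values speak only for the spread among these 8 libraries.

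The kidney arises from the intermediate mesoderm, a strip beside the somites that forms the nephric duct and the metanephric mesenchyme. The duct sends out the ureteric bud when GDNF, secreted by the mesenchyme, activates the receptor tyrosine kinase RET on duct cells. Transcription factors act on both sides of this exchange: OSR1 is among the earliest factors of the intermediate mesoderm, PAX2 and LHX1 are needed for the duct, and EYA1, WT1 and SIX2 act in the mesenchyme. In bulk tissue, fewer open cells and less open chromatin per cell cannot be told apart.

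The libraries held 2873918 to 4180434 counts over all regions. The Sd/Sd totals averaged 3546690 ± 471300 counts and the WT totals 3190020 ± 287300 (SD, n = 4 each). Their ratio of 1.11 was within the spread (two-sided exact permutation test, p = 0.257). Levels are given as CPM, the count divided by the library total and multiplied by 1000000. Windows of 50 kb around 4 genes of the tailbud and presomitic mesoderm held 1 region at T, 6 at Cdx2, 5 at Tbx6 and 1 at Wnt3a. Windows of the same length at Alb (liver), Myod1 (muscle) and Umod (nephron tubule) held 1 region each, so the presence of a region did not separate tailbud genes from genes of other tissues.

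For 4 of the 8 genes RefSeq promoters were at hand, in build GRCm38.p6, from 250 bases before to 50 after a transcription start. They are shown because these sequences start the genes whose windows are described, and since no mm9 sequence was used here, whether they lie in a counted region was not determined. Where a gene has several starts, the one with the most CpG dinucleotides is given. Capitals mark E-boxes (CANNTG), the motif bound by basic helix-loop-helix factors such as PTF1A, the gene next to which the Danforth insertion is known to lie.
Pax2, chr19:44756656-44756955, plus strand: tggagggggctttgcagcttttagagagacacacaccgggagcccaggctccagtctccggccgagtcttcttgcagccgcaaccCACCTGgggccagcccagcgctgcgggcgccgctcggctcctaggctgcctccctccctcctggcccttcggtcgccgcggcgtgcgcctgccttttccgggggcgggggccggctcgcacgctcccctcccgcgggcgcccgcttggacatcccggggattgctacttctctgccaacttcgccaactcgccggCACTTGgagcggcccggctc
Lhx1, chr11:84525485-84525784, minus strand: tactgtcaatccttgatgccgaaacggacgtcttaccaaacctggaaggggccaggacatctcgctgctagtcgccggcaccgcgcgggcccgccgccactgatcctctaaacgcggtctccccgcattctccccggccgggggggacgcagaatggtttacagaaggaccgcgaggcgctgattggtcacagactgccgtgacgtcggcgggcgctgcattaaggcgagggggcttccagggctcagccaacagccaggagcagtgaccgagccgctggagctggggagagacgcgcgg
Six2, chr17:85688205-85688504, minus strand: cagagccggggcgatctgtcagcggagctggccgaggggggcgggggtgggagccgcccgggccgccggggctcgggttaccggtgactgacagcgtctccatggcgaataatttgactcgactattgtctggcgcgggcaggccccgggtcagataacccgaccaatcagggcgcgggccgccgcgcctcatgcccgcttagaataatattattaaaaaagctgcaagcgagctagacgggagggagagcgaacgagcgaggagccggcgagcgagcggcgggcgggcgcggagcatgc
Gdnf, chr15:7813477-7813776, plus strand: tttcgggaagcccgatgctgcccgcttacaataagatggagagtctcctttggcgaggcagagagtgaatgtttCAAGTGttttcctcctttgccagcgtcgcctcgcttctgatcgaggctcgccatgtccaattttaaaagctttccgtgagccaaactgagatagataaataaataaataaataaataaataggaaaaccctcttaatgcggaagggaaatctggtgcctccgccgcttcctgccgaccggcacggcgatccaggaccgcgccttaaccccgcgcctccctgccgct
The Pax2 promoter held 2 E-boxes and the Gdnf promoter 1, while those of Lhx1 and Six2 held 0. An E-box, whose fixed letters are the same on both strands, was in 72.3% of all 32851 promoters of 300 bases. The GLI motif TGGGTGGTC, searched on both strands, was in 0 of the 4, against 0.253% of all promoters. CpG dinucleotides numbered 37 in the Six2 promoter, 31 in Lhx1, 30 in Pax2 and 22 in Gdnf, against a median of 7. All 4 lie above that median, but at Pax2 and Gdnf the start shown was picked for this number. The other listed starts had 7 and 23 CpG dinucleotides at Pax2, with 0 and 1 E-boxes, and 11 at Gdnf, with 1. These are descriptions of the sequence that say nothing of binding.

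Counted regions lay about as densely at these genes as elsewhere, and most were of middling level. The windows held 11.2 regions per Mb, against 11 per Mb over the 19 autosomes. The Wt1 window held 6 regions, Six2 4, Ret 3 and Osr1 2, and the windows of Pax2, Lhx1, Eya1 and Gdnf held 1 each. The regions were 251 to 1651 bp wide (median 771, against 874 over all regions). Their mean level over the 8 libraries lay between 6.70 and 54.4 CPM, and 12 of 19 were below the median region of the genome (25.8 CPM). Single counts ran from 13 to 213 per region and library.

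**Figure D1:**
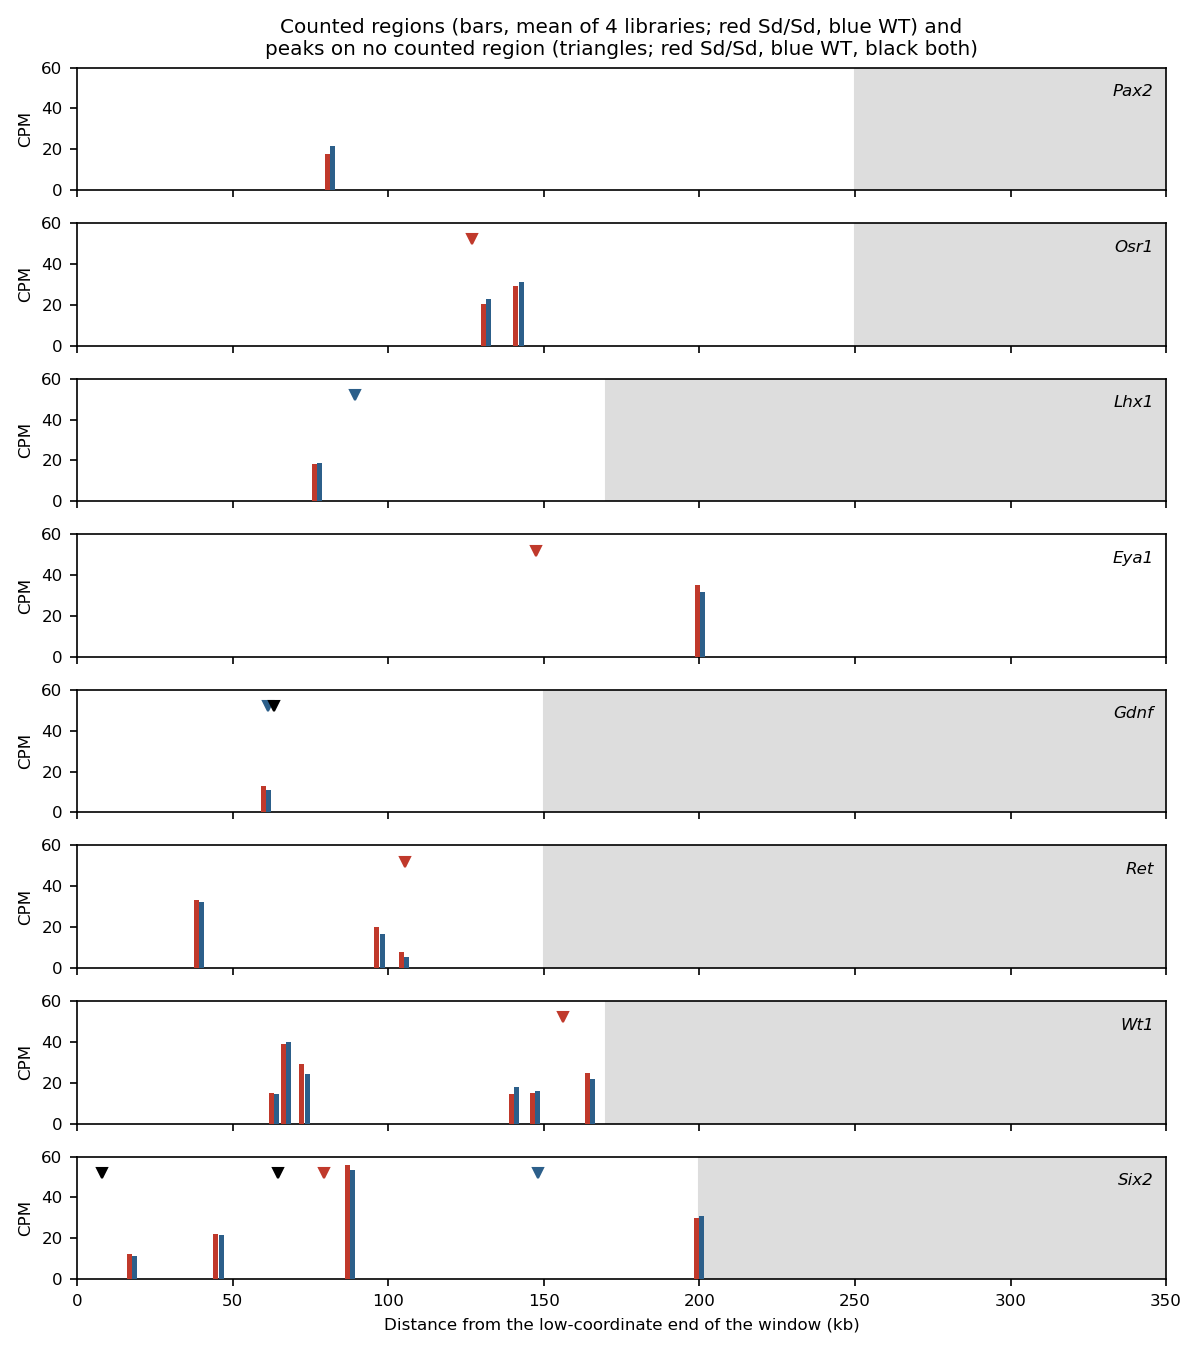
Position of the counted regions in each gene window, as distance in kb from its low-coordinate end, with bars for the mean CPM of 4 Sd/Sd (red) and 4 WT (blue) libraries; grey lies outside the window. Triangles mark the 11 intervals with a peak but no count, at a height that carries no value, the bars are wider than the regions, and the Wt1 window is seen to hold 6 regions where Pax2, Lhx1, Eya1 and Gdnf hold 1 each.

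Per kb of counted region, the windows followed the order Osr1, Gdnf, Ret, Lhx1, Wt1, Eya1, Six2 and Pax2. The summed level was 38.7 ± 4.35 CPM per kb at Osr1, 38.2 ± 6.42 at Gdnf, 35.1 ± 4.33 at Ret and 33.3 ± 7.78 at Lhx1 (SD, n = 8 libraries). It was 30.7 ± 3.16 CPM per kb at Wt1, 30.5 ± 2.68 at Eya1 and 26.7 ± 1.82 at Six2. Neighbours in this order differed by less than their spread from Osr1 down to Eya1, where the higher of each pair led in 3 to 5 of 8 libraries, and Eya1 led Six2 in 6 of 8. Pax2 stood apart at 16.1 ± 3.92 CPM per kb, below Six2 in 8 of 8 libraries. Its 1 region was wide, at 1221 bp, and in counts per kb it stood at the 0.665th percentile of all regions.

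No difference between the genotypes was detected at any of the 19 regions. By edgeR's quasi-likelihood test, 0 of 19 passed an adjusted p of 0.05, against 0.0188% of all regions, and 0 of 19 reached an unadjusted p under 0.05, against 6.06% of all regions (2.98% higher and 3.09% lower in Sd/Sd). DESeq2 and limma's voom likewise gave 0 calls among the 19. The log2 fold changes of Sd/Sd over WT ran from -0.30 to 0.52, with 11 above and 8 below 0. Their median was 0.05, against 0.001 over all regions, where 13347 lay above and 13273 below 0. The 11 include the 4 regions, described below, with a peak called in no WT library. Of all regions with no WT peak, 90.6% had a change above 0. The unadjusted p ran from 0.117 to 0.918 and the adjusted p from 0.874 to 0.997 (edgeR, Benjamini-Hochberg over all regions). In none of the 19 regions did the 4 Sd/Sd libraries all lie on one side of the 4 WT libraries, where 3.2% of all regions showed this, 1.6% in each direction.

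The intervals bounded the differences these libraries allow. The 95% interval of the change lay within 2-fold in either direction at 18 of 19 regions, against 98.1% of all regions, and within 1.5-fold at 13 of 19, against 73.8%. The exception to the 2-fold bound was the third region of the Ret window, whose interval reached 2.29-fold. Over the 8 libraries the coefficient of variation of a member region had a median of 17%, where counting error alone gives 11.9%. Over all regions the medians were 15.3% and 10.9%. Thus the 19 regions varied slightly more than the typical region, and they also had fewer counts, with a median of 71 per library against 87.

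**Figure D2:**
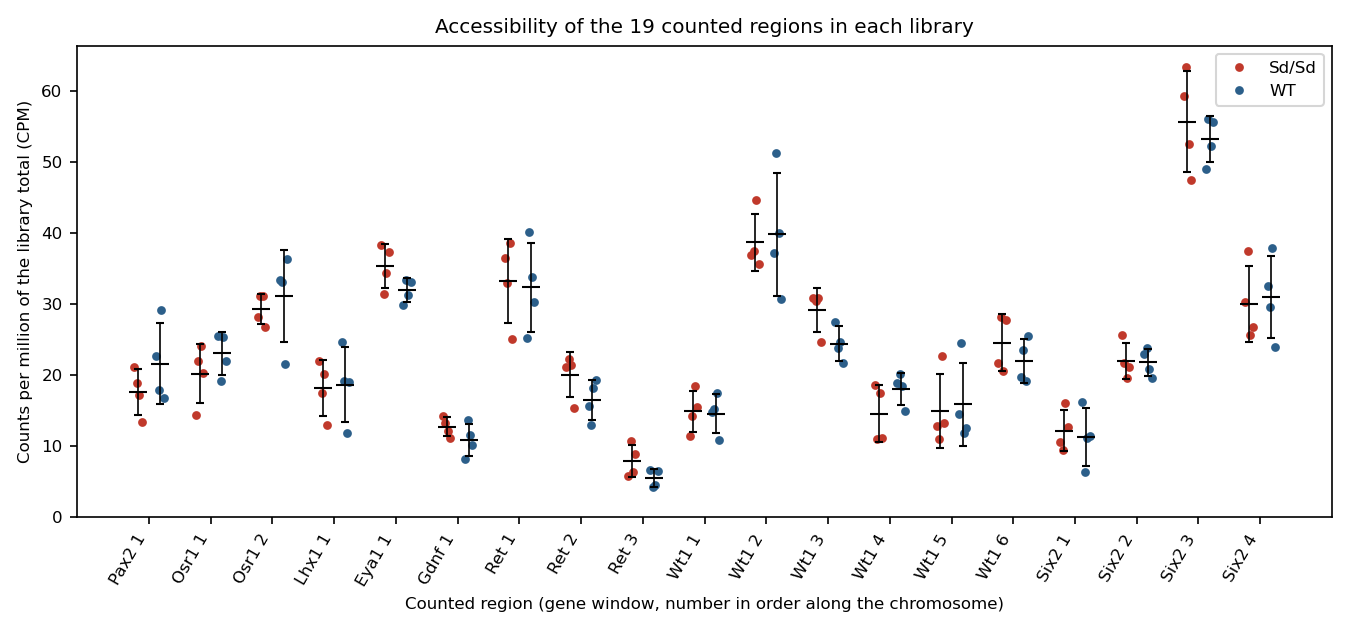
CPM of each of the 19 counted regions in each library, with the mean and SD of 4 Sd/Sd (red, left of each pair) and 4 WT (blue) libraries. The groups overlap at every one of the 19 regions, and the levels run from 4.30 CPM at the third Ret region to 63.4 CPM at the third Six2 region.

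Regions are numbered within each window in order along the chromosome. In the Osr1 window, where the zinc-finger factor of the earliest intermediate mesoderm lies, both regions were open in most libraries. The first, chr12:9581159-9581724, had 14.4, 22.0, 24.1 and 20.3 CPM in Sd/Sd libraries 1 to 4, against 25.5, 19.2, 25.4 and 22.0 CPM in WT libraries 1 to 4. The second, chr12:9591459-9592229, had 28.1, 31.1, 31.1 and 26.8 CPM in Sd/Sd, against 33.3, 33.1, 21.6 and 36.3 CPM in WT. Sd/Sd replicate 1 was the lowest of all libraries at the first region and WT replicate 3 at the second, and the groups overlapped at both. The fitted ratios of Sd/Sd over WT were 0.88 (95% interval 0.685 to 1.13) and 0.938 (0.76 to 1.16).

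PAX2, a paired-domain factor, is needed for the nephric duct and its bud. Its window held the region chr19:44830697-44831917, with 21.1, 18.8, 17.2 and 13.4 CPM in Sd/Sd and 22.6, 17.9, 29.2 and 16.7 CPM in WT. The WT mean rested in part on replicate 3, the highest of the 8 libraries, while Sd/Sd replicate 4 was the lowest. The mean was 17.6 ± 3.24 CPM in Sd/Sd and 21.6 ± 5.69 in WT (SD, n = 4 each), a log2 fold change of -0.29 (SE 0.20, edgeR adjusted p = 0.884). Without WT replicate 3 it was -0.12, and without Sd/Sd replicate 4 it was -0.175.

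LHX1, a LIM-homeodomain factor of the duct, had 1 region in its window, chr11:84326778-84327330. It had 21.9, 17.5, 20.2 and 12.9 CPM in Sd/Sd and 24.6, 19.2, 11.8 and 19 CPM in WT. One library of each genotype, Sd/Sd replicate 4 and WT replicate 3, lay well below the rest. The fitted ratio of Sd/Sd over WT was 0.964 (95% interval 0.733 to 1.27).

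Among the factors of the mesenchyme, EYA1 is a coactivator and phosphatase that works with homeodomain partners such as SIX2 and is required for Gdnf expression. Its 350 kb window held the single region chr1:14299657-14300760, with 38.3, 31.4, 34.4 and 37.3 CPM in Sd/Sd and 29.8, 33.4, 31.3 and 33.1 CPM in WT. In Sd/Sd, 3 of 4 libraries exceeded every WT library, and Sd/Sd replicate 2 did not. The mean was 35.4 ± 3.13 CPM in Sd/Sd and 31.9 ± 1.67 in WT (SD, n = 4 each), a 1.12-fold difference (95% interval 0.914 to 1.36, edgeR adjusted p = 0.932). This region varied over the 8 libraries by 8.79%, less than the 9.51% that counting error gives.

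WT1, a zinc-finger factor that keeps the metanephric mesenchyme alive and later marks podocytes, had 6 regions in its window, the most of the 8 genes. Regions 1 to 3 lay 3.12 and 4.94 kb apart, and regions 4 to 6, which began 66.5 kb further on, lay 6.18 and 16.9 kb apart. Their means ran from 14.6 to 38.7 CPM in Sd/Sd and from 14.6 to 39.8 CPM in WT. The most open per kb was region 1, chr2:104963057-104963395, with 11.4, 14.2, 18.4 and 15.5 CPM in Sd/Sd and 14.8, 15.2, 17.4 and 10.8 CPM in WT. The libraries of both genotypes interleaved, and the fitted ratio of Sd/Sd over WT was 1.03 (95% interval 0.762 to 1.4). The highest level was that of region 2, chr2:104966521-104967547, at 36.9, 37.5, 44.6 and 35.6 CPM in Sd/Sd and 37.1, 51.3, 40.0 and 30.7 CPM in WT. The 4 Sd/Sd values fell inside the WT range.

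Region 3 of Wt1, chr2:104972491-104973614, had the smallest unadjusted p of the 19. It had 30.8, 30.4, 30.8 and 24.6 CPM in Sd/Sd, against 27.5, 23.8, 24.7 and 21.7 CPM in WT. In Sd/Sd, 3 libraries exceeded every WT library, and replicate 4 lay among the WT values. The mean was 29.2 ± 3.02 CPM in Sd/Sd and 24.4 ± 2.42 in WT (SD, n = 4 each), a log2 fold change of 0.26 (SE 0.16, unadjusted p = 0.117, adjusted p = 0.874 in edgeR). Region 5, chr2:105046877-105047419, was the most variable of the 19, with 22.6 CPM in Sd/Sd replicate 3 and 24.5 CPM in WT replicate 2, and 11 to 14.5 CPM in the other 6 libraries. The log2 fold change was -0.30 at region 4, -0.08 at region 5 and 0.17 at region 6, and each 95% interval included 0.

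SIX2, a homeodomain factor that keeps nephron progenitors undifferentiated, had 4 regions in its window. Region 3, chr17:86086930-86088580, was the widest and the highest of the 19, with 59.2, 63.4, 52.5 and 47.4 CPM in Sd/Sd and 49.0, 56.0, 52.2 and 55.6 CPM in WT. The highest and the lowest value were both from Sd/Sd libraries. Its ratio of Sd/Sd over WT was 1.05 (95% interval 0.892 to 1.23), the narrowest interval of the set. At regions 1, 2 and 4 the ratio was 1.08, 1.01 and 0.975, and region 4 crossed the end of the window.

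GDNF and RET are the ligand and the receptor of ureteric budding. The Gdnf window held 1 narrow region of 308 bp, chr15:7760624-7760931, with 14.2, 13.3, 12.1 and 11.2 CPM in Sd/Sd and 8.11, 13.6, 11.5 and 10.2 CPM in WT. WT replicate 1 was the lowest library and WT replicate 2 lay within the Sd/Sd range, so the groups overlapped. The region rested on 28 to 51 counts per library, and its ratio of 1.18 had an interval from 0.833 to 1.66. The Ret window held 3 regions. The first, chr6:118088882-118089484, was the most open of the 19 per kb (54.4 CPM per kb, 86.4th percentile of all regions), with 36.4, 33.0, 38.6 and 25.1 CPM in Sd/Sd and 25.2, 40.1, 33.8 and 30.2 CPM in WT. Its lowest values in the genotypes were nearly equal, and its ratio was 1.03 (95% interval 0.843 to 1.27).

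The other Ret regions were lower. The second, chr6:118146745-118147535, had 21.1, 22.3, 21.4 and 15.3 CPM in Sd/Sd, against 15.6, 12.9, 18.1 and 19.3 CPM in WT. Here 3 Sd/Sd libraries exceeded every WT library, while replicate 4 lay below 3 of the 4 WT libraries, and the log2 fold change was 0.28 (SE 0.20, edgeR adjusted p = 0.89). The third, chr6:118154900-118155150, had the lowest level of the 19, with 21, 33, 21 and 37 counts in Sd/Sd and 23, 13, 13 and 22 counts in WT. In CPM these were 5.83, 10.7, 6.33 and 8.85 in Sd/Sd and 6.66, 4.30, 4.52 and 6.44 in WT. The fitted ratio of 1.43 was the largest of the set and had the widest interval, from 0.896 to 2.29.

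**Figure D3:**
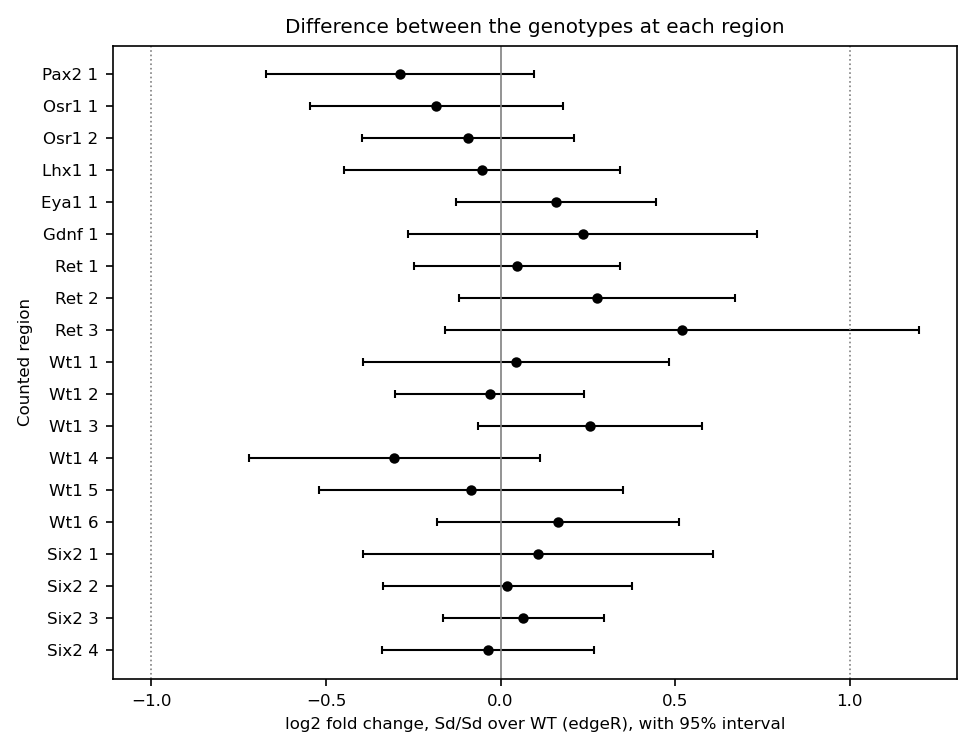
Log2 fold change of Sd/Sd over WT at each of the 19 counted regions with its 95% interval from edgeR; dotted lines mark 2-fold in either direction. Each interval includes 0, and only that of the third Ret region crosses a dotted line.

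The authors also called broad peaks in each library alone, and these gave a second view of the same regions. A peak was placed on 14, 10, 14 and 16 of the 19 regions in Sd/Sd libraries 1 to 4, against 10, 12, 7 and 10 in WT libraries 1 to 4. The means were 13.5 ± 2.52 in Sd/Sd and 9.75 ± 2.06 in WT (SD, n = 4 each), and the difference did not pass the two-sided exact permutation test (p = 0.114). The smallest p that 4 against 4 libraries allow is 0.0286. Over the genome the Sd/Sd libraries also had more peaks, 25401 on average against 21564 in WT. When every library was cut to its 18682 best-ranked peaks, an alternative chosen after seeing the data, the means were 10.5 in Sd/Sd and 9.25 in WT. By region, 9 had a peak in more Sd/Sd than WT libraries (29.3% of all regions) and 3 in more WT than Sd/Sd libraries (13.1% of all regions). Equal numbers were seen at 7, against 57.6% of all regions. Only the Eya1 region, the first Ret region and the third Six2 region had a peak in all 8 libraries, a pattern of 41.3% of all regions.

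At 2 regions every Sd/Sd library and 0 WT libraries had a peak: the second Ret region and the third Wt1 region. This pattern was seen in 0.301% of all regions, and the reverse in 0.0301% of all regions and in 0 of the 19. At the second Ret region the peak caller's fold enrichment was 2.85, 3.24, 2.81 and 2.58 in Sd/Sd libraries 1 to 4. At the third Wt1 region it was 2.87, 2.75, 2.85 and 2.90. All of these lay below the median enrichment of all peaks, 3.33, and the lowest was at the 5th percentile, 2.58. The counts there differed by 1.21- and 1.19-fold with overlapping libraries. These 2 regions are named for this pattern, so their peak calls are a description only.

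At 18682 peaks per library the second Ret region had a peak in 1 Sd/Sd and 0 WT libraries, and the third Wt1 region kept one in 4 Sd/Sd and 0 WT libraries. With peaks of q at most 0.01 the numbers were 1 and 0 at the Ret region and 3 and 0 at the Wt1 region. The third Ret region and the first Wt1 region had a peak in 2 Sd/Sd and 0 WT libraries. Hence 4 of 19 regions, all in the Ret and Wt1 windows, had no WT peak, a pattern of 6.63% of all regions. How the counted regions were chosen was not examined here. Whether that choice favours a higher count in Sd/Sd at regions with no WT peak was not tested. Over the genome, the median change at regions with no WT peak was 0.24 (log2), and 90.6% were above 0. Of the 19, 0 lacked a peak in every Sd/Sd library, against 1.91% of all regions.

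**Figure D4:**
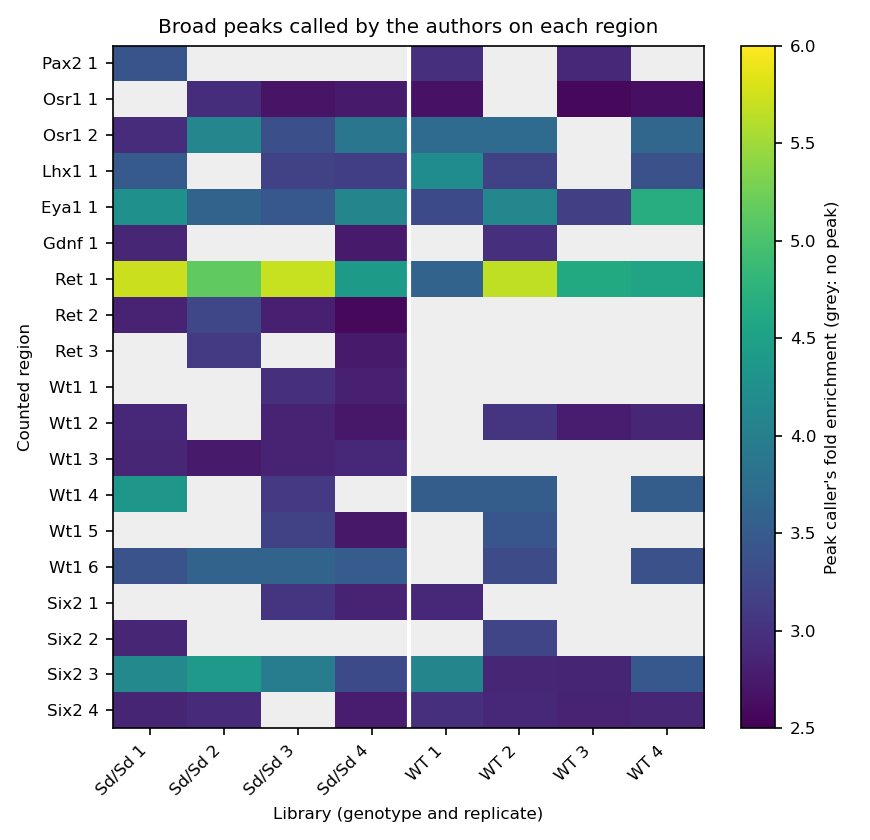
Broad peaks on the 19 counted regions (rows) in 4 Sd/Sd and 4 WT libraries (columns), coloured by the peak caller's fold enrichment, with grey where no peak was called. The second Ret and the third Wt1 region are filled in all 4 Sd/Sd columns and grey in all 4 WT columns, at enrichments of 2.58 to 3.24.

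The windows also held 11 merged peak intervals that were not counted. Of these, 8 were called in 1 library only, and none in more than 2. They fell in Sd/Sd libraries alone 5 times, in WT libraries alone 3 times and in both genotypes 3 times. The Six2 window held 4 of them, Gdnf 2, Osr1, Lhx1, Eya1, Ret and Wt1 1 each, and Pax2 0. The one of smallest q, chr12:9576744-9576943 in the Osr1 window, was called in Sd/Sd replicate 1 at a fold enrichment of 3.56.

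Summed over its regions, no window separated the genotypes. Each of the 8 was tested singly over the 70 arrangements of the libraries (exact permutation test, two-sided, unadjusted), and the p ran from 0.114 at Eya1 to 0.914 at Wt1. The Eya1 value depended on the window: its log2 ratio was 0.147, but 0.0413 (exact permutation p = 0.514) with the window widened by 50 kb. The same widening moved the Pax2 log2 ratio from -0.294 (exact permutation p = 0.286) to -0.24 (p = 0.114 in the same test). The Ret window had 63.3, 66.0, 66.4 and 49.3 CPM in Sd/Sd and 47.5, 57.3, 56.4 and 55.9 CPM in WT, a ratio of 1.13 (exact permutation p = 0.171). Here 3 Sd/Sd libraries were above every WT library, and replicate 4 was below 3 of 4. Of the 3 Ret regions summed, regions 2 and 3 had a peak in no WT library, and region 1 had a ratio of 1.03. Among all regions with no WT peak, 90.6% had a change above 0, and the ratio of the Ret window carries this limit. The Wt1 window had 132, 132, 154 and 128 CPM in Sd/Sd and 132, 159, 132 and 116 CPM in WT, a ratio of 1.02. Its regions 1 and 3 likewise had a peak in no WT library, so the Wt1 ratio carries the same limit. The Six2 window had 126, 132, 114 and 108 CPM in Sd/Sd and 121, 116, 122 and 111 CPM in WT, also a ratio of 1.02. The remaining ratios of Sd/Sd over WT were 0.816 at Pax2, 0.914 at Osr1, 0.971 at Lhx1, 1.11 at Eya1 and 1.17 at Gdnf.

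**Figure D5:**
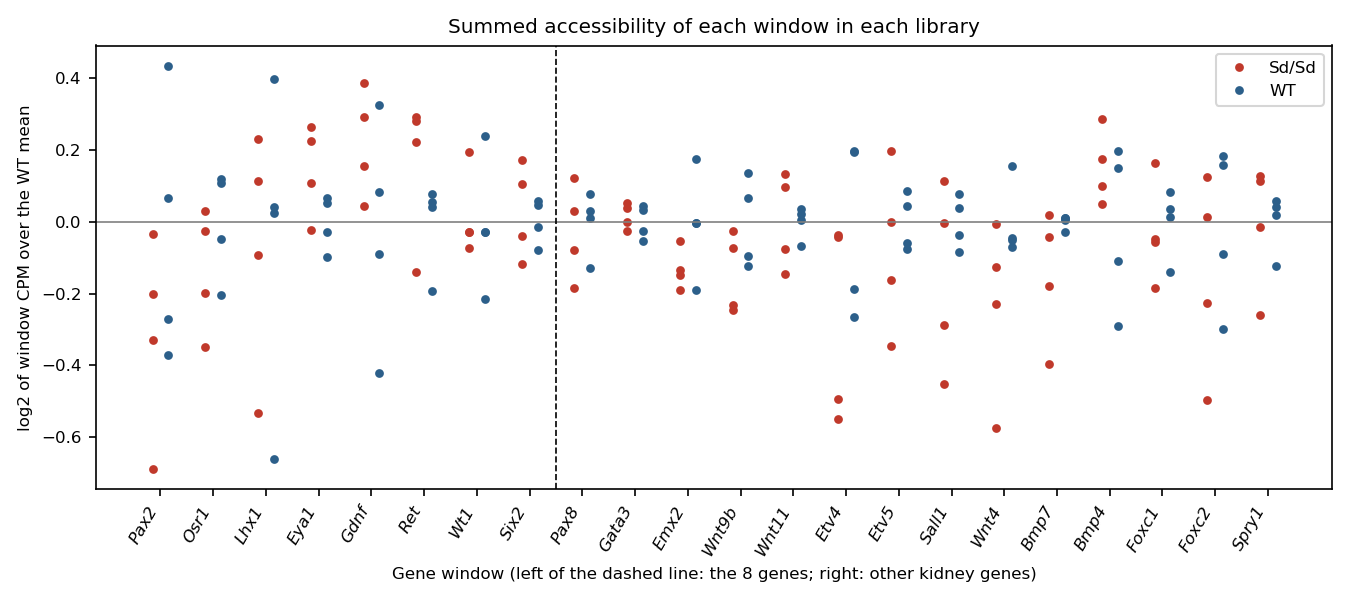
Summed CPM of each gene window in each library, as log2 of its ratio to the WT mean, for 4 Sd/Sd (red, left) and 4 WT (blue) libraries; the 8 genes are left of the dashed line and 14 other kidney genes with counted regions right of it. The genotypes overlap in each of these windows, with Ret at a ratio of 1.13 and Pax2 at 0.816. Of the 3 Ret regions summed, regions 2 and 3 had a peak in no WT library.

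Another 15 genes of kidney development were looked at in windows of 100 kb to each side, placed from general knowledge of the mm9 map. Gfra1, the co-receptor of RET, had 0 counted regions and 0 peaks in its window, and the other 14 windows held 40 regions. Of these, 0 passed an adjusted p of 0.05 in edgeR, DESeq2 or limma's voom, and 0 reached an unadjusted p under 0.05, against 6.06% of all regions. Their unadjusted p ran from 0.0742 to 0.992 in edgeR. Genes of the nephric duct and ureteric bud (Pax8, Gata3, Emx2, Wnt9b, Wnt11, Etv4 and Etv5) had 22 regions, 5 with a log2 fold change above 0 and 17 below, with a median of -0.07. Genes of the mesenchyme, nephron and stroma (Sall1, Wnt4, Bmp7, Bmp4, Foxc1, Foxc2 and Spry1) had 18 regions, 8 above and 10 below 0, with a median of -0.025. Over all regions the median was 0.001, with 13347 above and 13273 below 0. All Wnt9b and Etv4 regions (chromosome 11) and all Emx2 regions (chromosome 19) were below 0. The median of all regions was -0.0544 on chromosome 11 and -0.0558 on chromosome 19.

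Across the 8 libraries, some windows varied alike. The summed log2 level of Six2 followed that of Spry1 most closely, at a Pearson's r of 0.901, and then Pax8 at 0.658, among 21 other windows. Gdnf went with Gata3 (0.869) and Ret (0.753), Pax2 with Etv4 (0.797) and Bmp7 (0.71), and Osr1 with Wnt4 (0.804) and Lhx1 (0.428). Ret went with Gdnf (0.753) and Gata3 (0.689), Wt1 with Bmp4 (0.664) and Wnt11 (0.526), Eya1 with Gdnf (0.538) and Bmp4 (0.308), and Lhx1 with Etv5 (0.486) and Wnt11 (0.481). These are descriptions over 8 libraries, whose points share library and depth, with the best of 21 picked in each case. The lowest values reached -0.747, between Eya1 and Wnt4, and -0.664, between Osr1 and Eya1.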

How the data were processed

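Libraries were grouped by genotype from the labels. Per the submitters' processing notes, the build was mm9 and the tools included BWA 0.7.15-r1140, MACS2 2.1.1.20160309 and bedtools 2.26.0. Not given in the sources used here were aligner settings, read filters and any Tn5 offset. Raw counts per region were deposited by the authors, with broad peaks per library that carry a score, a fold enrichment (ratio) and −log10 p- and q-values.

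A region belonged to a window at an overlap of at least 1 bp. CPM were counts over the library total. All 26620 regions were fitted with edgeR 4.0.16 (quasi-likelihood, robust, TMM, genotype only, 8 libraries, two-sided), with Benjamini-Hochberg adjustment over all regions, after testing on simulated data. Single values used exact permutation tests (SciPy 1.17.1). Alternatives were DESeq2 1.42.0, limma 3.58.1, other scalings, a filter, a replicate block, other windows, stricter peaks and leaving out each library. Regions described in full were the one with the most counts per kb in each window and any with an unadjusted p under 0.05; Ret regions 2 and 3, Wt1 regions 2, 3 and 5 and the first Osr1 region were added after their values were seen. Members and lists were chosen with earlier results of these data known. Some items of the lists are not reported here, and counts over a list cover the genes named. Gene positions beside the 8 windows were not checked against an mm9 annotation.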

Additional observations from a re-analysis of the deposited data

Results flagged for a closer look

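Of 46 groups of 4 libraries examined, 3 had 1 library well apart from its group, where about 1 group in 20 would be so by chance. At the third Wt1 region Sd/Sd replicate 4 had 24.6 CPM, against 30.4 to 30.8 CPM in the other Sd/Sd libraries. In the summed Wt1 window Sd/Sd replicate 3 had 154 CPM, against 128 to 132 CPM. In the summed Ret window WT replicate 1 had 47.5 CPM, against 55.9 to 57.3 CPM in the other WT libraries.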

How the results depend on the processing

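No setting gave a call, or an unadjusted p under 0.05, among the 19 regions, and the lowest p of a region under any of them was 0.0575. Of 262 refits of single regions 241 kept the direction and 21 turned it, at 9 regions with small changes. With 1 library left out, the log2 fold change ran from -0.214 to 0.11 at the Lhx1 region, -0.0579 to 0.167 at Ret region 1, and -0.0734 to 0.155, -0.136 to 0.113 and -0.345 to 0.197 at Wt1 regions 1, 2 and 5. At Six2 regions 1 to 4 it ran from -0.0865 to 0.34, -0.0613 to 0.0706, -8.25e-05 to 0.133 and -0.154 to 0.0678. Other ranges that kept their direction but moved by over 1.5 times included -0.275 to -0.0519 and -0.229 to -0.00545 at Osr1 regions 1 and 2, -0.393 to -0.118 at the Pax2 region, 0.113 to 0.359 at Gdnf and -0.445 to -0.195 at Wt1 region 4. Wt1 region 2 was also at 0.000778 with limma's voom. With 1 library left out, window sums ran from -0.209 to 0.12 at Lhx1, -0.0428 to 0.11 at Wt1 and -0.0189 to 0.0782 at Six2. The smallest exact p possible is then 0.0571. It was reached by the Eya1 sum without Sd/Sd replicate 2 (log2 ratio 0.2) and the Ret sum without Sd/Sd replicate 4 (0.265). The number of the 19 regions with a peak reached it too, without Sd/Sd replicate 2 (difference of means 4.92). In each case the library left out was an Sd/Sd library within the WT range. Over all single omissions the exact permutation p ran up to 0.229 at Eya1, 0.343 at Ret and 0.229 for the peaks. The Wt1 sum was 0.00653 with the window narrowed by 25 kb, against 0.0216.

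Over all regions 5 passed the threshold, 3 with DESeq2, 2 to 19 with 1 library left out (fewest without Sd/Sd replicate 2, most when WT replicate 1 was dropped), and 23 with the replicate block. The labels do not say whether the number pairs the libraries. The deviations of same-numbered libraries correlated at -0.00107 to 0.0918, and Sd/Sd replicates 1 to 3 did not correlate best with their own number. Sd/Sd replicate 4 did, at 0.0918, against -0.0362 to -0.0198 with the other WT libraries. Among the other kidney genes the count at an unadjusted p under 0.05 was 0, and 0 to 2 with 1 library left out (most without Sd/Sd replicate 1). The cause of these shifts was not tested.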
